A study of Homo sapiens with 6 samples.

Results

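Growth factor receptor kinases and ligands of the EGF receptor were followed in Hep-G2 cells in which CLGN had been knocked down. The 10 genes were chosen by name from a table of 58735 genes. They comprise 8 receptor tyrosine kinases (EGFR, ERBB2, ERBB3, MET, FGFR1, FGFR2, FGFR3 and EPHA2) and 2 ligands (AREG and EREG).

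Hep-G2 is an established human liver cancer line. Its cells carried either a hairpin RNA that targets CLGN (sh-CLGN, genotype given as a CLGN knockdown, n = 3 libraries) or a control hairpin (sh-NC, genotype given as wild type, n = 3 libraries). Per the study's methods, hairpins were delivered by lentivirus with 1 hairpin sequence per group, so an effect of the target cannot be told apart from an effect of that hairpin. All 6 libraries bear the same batch label. Per the methods, transduced cells were screened with puromycin, and no other treatment is given for either group. Nothing in the labels says that the libraries of a group came from separate cultures, so p-values measure the spread between these libraries, which may be technical.

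Receptor tyrosine kinases span the cell membrane and, once a ligand pairs them, phosphorylate each other and recruit adaptors that switch on the RAS-ERK and PI3K routes. EGFR binds ligands such as amphiregulin and epiregulin, which are made as membrane proteins and released by cleavage. ERBB2 binds no known ligand, ERBB3 has a weak kinase, and both act mainly in pairs with other ERBB receptors. MET is the receptor of hepatocyte growth factor and is known for its part in liver growth and repair, FGFR1 to FGFR3 bind fibroblast growth factors, and EPHA2 binds ephrins on neighbouring cells.

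The bases upstream of EPHA2 and MET, the tested receptors with the largest fall and the only rise, and of the ligands AREG and EREG, whose ratio differed between the groups, are shown here for their motif content. Each run holds the 120 bases before the start given by RefSeq on GRCh38.p14, 5′ to 3′ on the strand of the gene. This start can differ from the deposited gene position. For MET the run ends at 116672195, and the deposited gene begins at 116672390. Capitals mark 4 motifs searched on both strands, and no 2 of the marked motifs overlap. The letters of the cAMP response element are TGACGTCA, those of the TATA box are TATAAA, the GC box reads GGGCGG, and the last motif is the CCAAT box, named for its letters.
EPHA2, chr1:16156070-16156189, minus strand: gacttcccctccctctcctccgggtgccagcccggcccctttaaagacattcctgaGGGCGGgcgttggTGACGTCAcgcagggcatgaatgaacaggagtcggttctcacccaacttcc
MET, chr7:116672076-116672195, plus strand: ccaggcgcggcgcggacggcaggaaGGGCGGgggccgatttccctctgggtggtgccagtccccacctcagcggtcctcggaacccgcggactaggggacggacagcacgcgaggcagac
AREG, chr4:74445016-74445135, plus strand: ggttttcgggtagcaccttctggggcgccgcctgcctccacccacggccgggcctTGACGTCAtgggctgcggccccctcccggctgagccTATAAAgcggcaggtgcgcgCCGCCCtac
EREG, chr4:74365025-74365144, plus strand: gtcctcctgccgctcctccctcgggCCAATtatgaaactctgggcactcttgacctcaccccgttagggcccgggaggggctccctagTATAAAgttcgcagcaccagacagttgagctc

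The full cAMP response element began 65 bases before the start of AREG and 51 bases before that of EPHA2. Over all 35116 promoter windows of 250 bases before to 50 after a start, 1.85% held it. AREG and EREG each had a TATA box, beginning at -29 and -32, a motif found in 11.5% of windows. A GC box, found in 15786 of the windows, stood in the bases shown of EPHA2, MET and AREG, and a CCAAT box, found in 34.6%, in those of EREG. Windows were given for 8 of the 10 genes, all but ERBB3 and FGFR1. A match is a description of the letters and not a measured binding site.

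CLGN, which encodes the endoplasmic reticulum chaperone calmegin, was at 24.1, 21.0 and 26.1 FPKM (fragments scaled for gene length and library size) in sh-NC and at 9.48, 8.88 and 8.60 in sh-CLGN. Its log2 fold change was -1.31 (SE 0.081, adjusted p = 8.35e-06), so the target separated the groups as labelled. Recovered reads numbered 14955816 to 16244639 per library. At least 1 read fell on 23578 to 23793 genes in sh-NC against 26814 to 27006 in sh-CLGN, and the mitochondrial genome took 3.25% to 4.02% and 5.49% to 5.80% of the reads. All 10 hepatocyte lineage markers passed the expression filter, and their summed level was 7086 to 7319 FPKM in sh-NC against 7178 to 7642 in sh-CLGN. The 9 fibroblast markers summed to 7.17 to 8.51 FPKM in sh-NC against 48.5 to 49.9 in sh-CLGN. Most of that sum was 1 gene, COL1A2, at a mean of 4.20 FPKM in sh-NC and 38.7 in sh-CLGN. PDGFRB was at 2.12 and 2.76 FPKM, and DCN, THY1 and FAP had at most 3 reads in any library. COL1A1, COL3A1 and LUM, 3 of the 5 fibroblast markers tested, passed the expression filter only through sh-CLGN, so no count of calls is drawn from that list. The 5 bile duct markers summed to 151 to 158 FPKM and 109 to 114, with SOX9 and EPCAM lower (SOX9 at 93.8 and 36.9 FPKM), KRT19 higher (37.3 and 56.9 FPKM) and KRT7 at no more than 3 reads. The 4 endothelial markers summed to 3.33 to 3.67 and 2.38 to 2.65 FPKM (KDR at 0 in every library, VWF at no more than 3 reads), and the 4 leukocyte markers to 1.20 to 1.48 and 0.471 to 0.780 FPKM. The part of these shifts in the receptor values was not tested, and in bulk RNA fewer cells of a type and less RNA per cell cannot be told apart.

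Knockdown of CLGN went with lower EPHA2, ERBB2 and FGFR3 transcripts, with higher MET and, on the deposited scale but not on TPM, quantile, read total or GC-corrected scales, with lower ERBB3. The falls ranged from EPHA2, at 54.1% of its control mean, to ERBB3, at 89.1%, and MET stood at 1.65-fold of its control mean. EGFR, FGFR1 and AREG did not pass the test, and EREG and FGFR2 lay below the expression filter of 1 FPKM in at least 3 libraries. Of the 8 genes tested with limma, 5 passed an adjusted p of 0.05, 1 higher and 4 lower, against 65.8% of all 13074 genes tested, of which 26.7% were higher and 39.0% lower. None of the 8 also reached an absolute log2 fold change of 1 (0 past both thresholds with limma or with voom on the same genes, 5 at an unadjusted p of at most 0.05), which 6.28% of all tested genes did. The groups did not overlap for 5 of the 8, against 70.2% of all tested genes. Both shares lie near the background, so the count by itself does not set these genes apart.

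**Figure D1:**
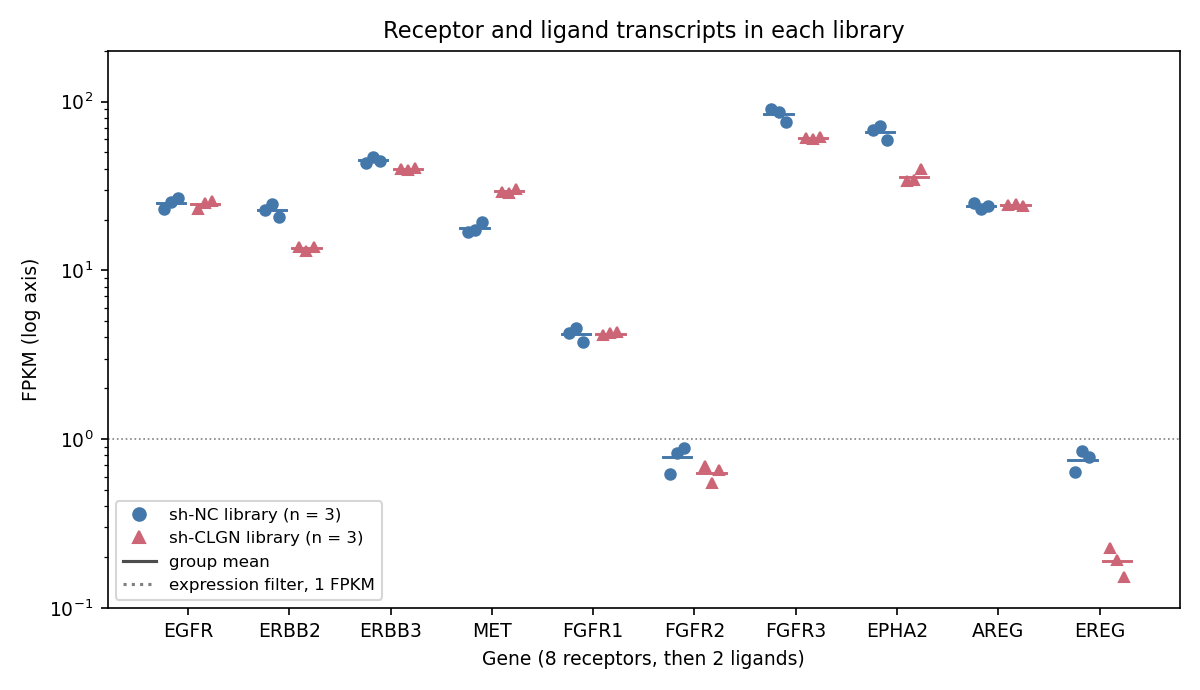
FPKM of each gene (log axis) in each of the 3 sh-NC libraries (circles) and 3 sh-CLGN libraries (triangles), with bars at the group means and a dotted line at the filter of 1 FPKM. EPHA2, ERBB2, ERBB3, FGFR3 and EREG lie lower in all 3 sh-CLGN libraries than in any sh-NC library, MET lies higher, and the points of EGFR, FGFR1, FGFR2 and AREG overlap.

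Scaling matters for the smaller of these differences, because the depositors' scaling had assumed library sizes of 0.933 to 0.953 times the recovered reads for sh-NC but 1.07 to 1.08 times for sh-CLGN. On the deposited scale the median log2 fold change of all tested genes was -0.08. It was 0.03 on TPM, 0.08 on read totals and -0.0042 after correction for GC content, and the median difference of a gene from its value on the deposited scale was 0.12, 0.17 and 0.12. The split of calls moved from 3496 higher and 5102 lower to 4285 and 3923 on TPM and to 4957 and 3421 on read totals. MET remained higher, and EPHA2, ERBB2 and FGFR3 lower, past the test under each of these scalings and under quantile normalization, whereas ERBB3, EGFR, FGFR1 and AREG depended on the scale.

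EPHA2 showed the largest fall of the tested receptors. Located at chr1:16124337-16156087 on the minus strand (GRCh38), it was at 67.6, 72.1 and 59.3 FPKM in sh-NC and at 33.8, 34.3 and 39.6 FPKM in sh-CLGN, on 2338 to 4378 reads per library. The groups stood well apart, with a gap between the lowest control and the highest knockdown library. The mean went from 66.3 ± 6.51 to 35.9 ± 3.23 FPKM (SD, n = 3), a log2 fold change of -0.87 (SE 0.087, adjusted p = 7.82e-05). It lay between -0.94 and -0.81 with any 1 library removed. Its transcript is rich in G and C (61.4%, above 89.6% of tested genes), and the GC-corrected log2 fold change was -0.60. A gene on the opposite strand at the same locus, AL451042.2, was read at 0.721 ± 0.244 FPKM in sh-NC and 1.93 ± 0.371 in sh-CLGN, and since it is not known whether counting used strand, reads of such overlapping pairs cannot be told apart.

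Within the ERBB family, ERBB2 fell while EGFR did not pass the test. ERBB2, the partner receptor without a ligand of its own at chr17:39687914-39730426 on the plus strand, was at 22.7, 24.8 and 20.7 FPKM in sh-NC and at 13.8, 13.0 and 13.7 FPKM in sh-CLGN. Every knockdown library was below every control library, and the log2 fold change was -0.71 (SE 0.070, adjusted p = 7.08e-05). After GC correction it was -0.46, at a GC content of 59.5%. MIEN1 and PGAP3 overlap ERBB2 on the opposite strand. They were also lower, at log2 fold changes of -0.71 and -0.24.

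EGFR itself, at chr7:55019021-55211628 on the plus strand, was at 23.1, 25.4 and 26.7 FPKM in sh-NC and at 23.1, 24.9 and 25.9 FPKM in sh-CLGN, on 4030 to 5226 reads per library. These values overlapped almost wholly. The log2 fold change was -0.02 with a 95% interval of -0.18 to 0.13 (adjusted p = 0.773), and on the other scalings it lay above 0, from 0.10 on TPM to 0.24 with quantile normalization, where it passed as higher (adjusted p = 0.0231). EGFR-AS1, annotated on the opposite strand within the EGFR locus, was at 4.83, 5.22 and 5.02 FPKM in sh-NC and at 2.90, 2.67 and 2.56 FPKM in sh-CLGN. It fell by 0.70 on the log2 scale (adjusted p = 5.62e-05), unlike the gene that surrounds it, although the difference between the pair was not tested.

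ERBB3, which relies on its partners for kinase activity, had the highest FPKM of the ERBB receptors. It was at 43.2, 46.7 and 44.4 FPKM in sh-NC and at 39.9, 39.3 and 40.6 FPKM in sh-CLGN, a difference in means of 44.8 ± 1.79 against 39.9 ± 0.664 FPKM (SD, n = 3). The groups did not overlap, but the gap was narrow. The log2 fold change of -0.16 (SE 0.047) passed the test on the deposited scale (adjusted p = 0.0172). It did not pass on TPM (-0.04), and its sign turned with quantile normalization (0.11), read totals (0.03) and GC correction (0.02). The call was also lost without sh-NC replicate 2, sh-CLGN replicate 1 or sh-CLGN replicate 2, with adjusted p-values of 0.0609, 0.0546 and 0.0752.

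FPKM divides by a single length per gene, here 12521 bases for EGFR, 10321 for ERBB2 and 9039 for ERBB3. Whether these lengths match the transcripts present was not tested, so levels of different genes are set beside each other only on this scale. A share does not depend on a factor applied to a whole library. GC correction moved log2 fold changes by unlike amounts, from -0.71 to -0.46 for ERBB2 and from -0.02 to 0.14 for EGFR, and the shares were not recalculated with it. ERBB3 made up 48.2% to 48.5% of the summed FPKM of the 3 ERBB receptors in sh-NC against 50.6% to 52.0% in sh-CLGN. The share of EGFR was 25.9% to 29.1% in sh-NC against 30.1% to 32.3% in sh-CLGN. ERBB2 held 22.5% to 25.6% and then 16.9% to 18.0%. The mix therefore held less ERBB2 relative to both partners, and the ratio of EGFR to ERBB2 was 1.11 ± 0.157 for the controls and 1.82 ± 0.130 for the knockdown (SD, n = 3). The summed level of the 3 was 92.5 ± 4.04 FPKM in sh-NC and 78.0 ± 1.84 FPKM in sh-CLGN.

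**Figure D2:**
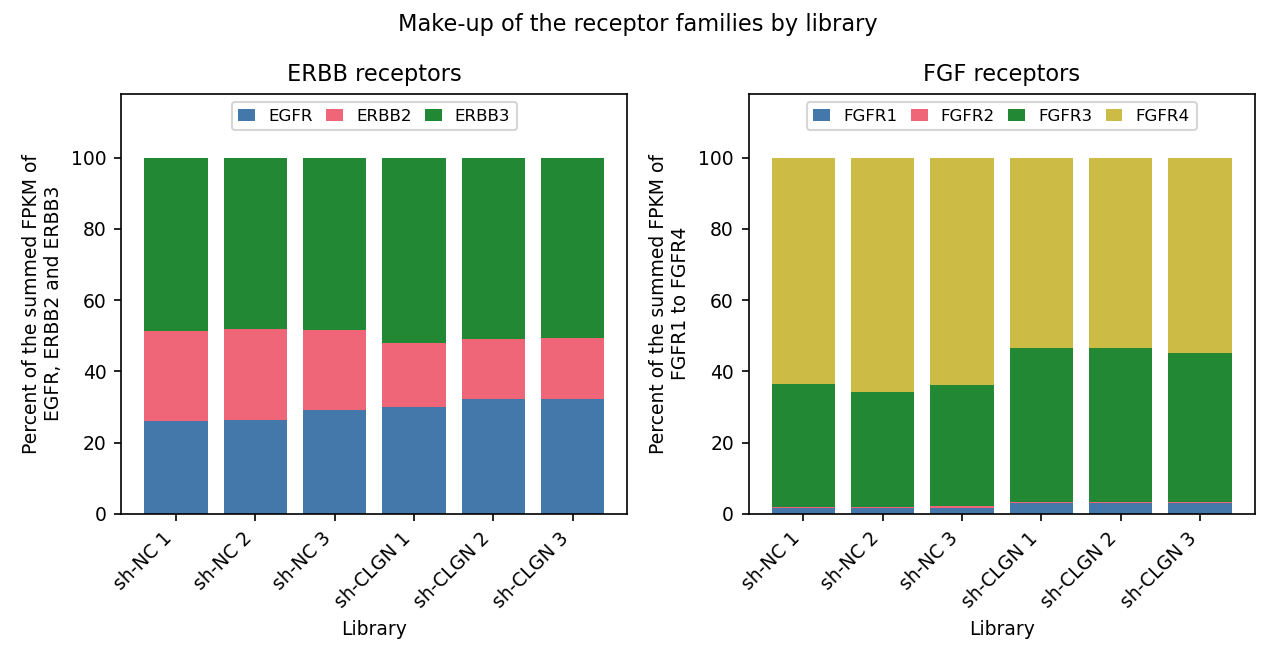
Stacked bars give each receptor as a percent of the summed FPKM of its family in each of the 6 libraries, for EGFR, ERBB2 and ERBB3 on the left and for FGFR1 to FGFR4 on the right. ERBB2 takes 22.5% to 25.6% in sh-NC against 16.9% to 18.0% in sh-CLGN, and FGFR3 takes 32.3% to 34.6% and 41.7% to 43.2%.

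MET, the hepatocyte growth factor receptor, was the one gene of the set that rose. At chr7:116672390-116798386 on the plus strand, it was at 16.9, 17.4 and 19.2 FPKM in sh-NC and at 29.01, 28.9 and 30.4 FPKM in sh-CLGN, on 1659 to 3464 reads per library. All 3 knockdown libraries were above all 3 controls. The log2 fold change was 0.69 (SE 0.059, adjusted p = 3.58e-05), and it lay between 0.68 and 0.94 over the other settings tried and between 0.66 and 0.75 with each library left out. GC correction left it at 0.68, at a GC content of 43.9%, below the median of 48.9% for tested genes. Since EPHA2 fell, the ratio of MET to EPHA2 went from 0.272 ± 0.046 to 0.823 ± 0.049 (SD, n = 3).

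Among the FGF receptors, FGFR3 had far higher FPKM than FGFR1 and FGFR2, and it was the one of these 3 that passed the test. FGFR3, at chr4:1793293-1808872 on the plus strand, was at 90.8, 87.1 and 75.4 FPKM in sh-NC and at 60.9, 60.2 and 61.6 FPKM in sh-CLGN. The controls were spread wider than the knockdown libraries, which lay within a narrow band below all of them. The log2 fold change was -0.46 (SE 0.070, adjusted p = 0.000675). With the highest GC content of the set (62.9%, above 93.3% of tested genes), FGFR3 kept its call after GC correction at -0.18 (adjusted p = 0.00222) and with quantile normalization at -0.16 (adjusted p = 0.0402), both well under the main value.

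FGFR1, on chromosome 8, was at 4.23, 4.57 and 3.74 FPKM in sh-NC and at 4.14, 4.24 and 4.29 FPKM in sh-CLGN. The knockdown values lay inside the range of the controls. The log2 fold change was 0.01 with a 95% interval of -0.16 to 0.18 (adjusted p = 0.871), and only GC correction among the settings tried brought it past the test, at 0.25 (adjusted p = 0.00449). FGFR2, on chromosome 10, was at 0.624, 0.832 and 0.887 FPKM in sh-NC and at 0.692, 0.547 and 0.654 FPKM in sh-CLGN, on 66 to 104 reads per library. Its groups overlapped. A setting chosen after the data were seen, voom on every gene that reached 10 reads in at least 3 libraries, gave a log2 fold change of -0.30 (adjusted p = 0.137).

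FGFR4, the FGF receptor known for bile acid control in hepatocytes and not one of the 10 genes, had the highest FPKM of that family. Its share of the summed FPKM of FGFR1 to FGFR4 was 64.4% ± 1.19 in sh-NC and 53.9% ± 0.874 in sh-CLGN. The share of FGFR3 was 33.6% ± 1.23 and then 42.7% ± 0.829, so FGFR3 took a larger part of a smaller sum, which went from 251 ± 25.9 to 143 ± 4.39 FPKM (SD, n = 3). FGFR1 held 1.66% and 2.96% of it and FGFR2 held 0.315% and 0.442%.

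The 2 EGFR ligands lie next to each other on chromosome 4 and differed in both level and change. AREG, encoding amphiregulin at chr4:74445134-74455009 on the plus strand, was at 25.1, 22.9 and 24.0 FPKM in sh-NC and at 24.3, 24.6 and 23.9 FPKM in sh-CLGN, on 552 to 678 reads per library. The groups overlapped. The log2 fold change was 0.02 with a 95% interval of -0.10 to 0.13 (adjusted p = 0.789). It passed as higher on TPM (0.14), read totals (0.20) and quantile normalization (0.27). The median differences over all genes from the deposited scale were 0.12, 0.17 and 0.06, in that order. AREG turned to -0.07 with GC correction.

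EREG, encoding epiregulin at chr4:74365143-74388751 on the plus strand, was low in both groups and lower in sh-CLGN. It was at 0.639, 0.851 and 0.780 FPKM in sh-NC, from 51, 71 and 69 reads, and at 0.227, 0.192 and 0.152 FPKM in sh-CLGN, from 22, 18 and 14 reads. The groups did not overlap, and the knockdown mean was 25.1% of the control mean. EREG was not tested in the main comparison because it lay below the filter. With no filter it passed as lower at a log2 fold change of -0.56 (adjusted p = 0.00428), as 14.1% of genes did, on a scale whose added 1 FPKM shrinks the change of so low a gene. The next 2 settings were chosen after the data were seen. With the same voom setting the log2 fold change was -1.97 (SE 0.267, adjusted p = 1.59e-06). There 34.6% of genes passed as lower, and 5.64% also had a log2 fold change of -1 or below. With a pseudocount of 0.1 and no filter the log2 fold change of EREG was -1.56 (adjusted p = 0.00543), and 2.43% of genes were lower past both thresholds. The ratio of AREG to EREG, 32.3 ± 6.29 among controls, was 131 ± 25.6 after knockdown (SD, n = 3).

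The other genes of this ligand cluster did not share the lower level of EREG. BTC (betacellulin), which lies 289750 bases beyond AREG, was at 0.407, 0.413 and 0.666 FPKM in sh-NC and at 1.51, 1.26 and 1.28 FPKM in sh-CLGN. BTC reached the filter of 1 FPKM only in sh-CLGN, and a gene at its control level could be tested only if it was higher there, so its values are given without the test. EPGN (epigen), 49836 bases before EREG, had 0 reads in each sh-NC library and 1, 2 and 2 reads in sh-CLGN, at or under the floor of 3 reads. Within 1 cluster, then, the sh-CLGN libraries lay below the controls for EREG, overlapped with them for AREG and lay above them for BTC.

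**Figure D3:**
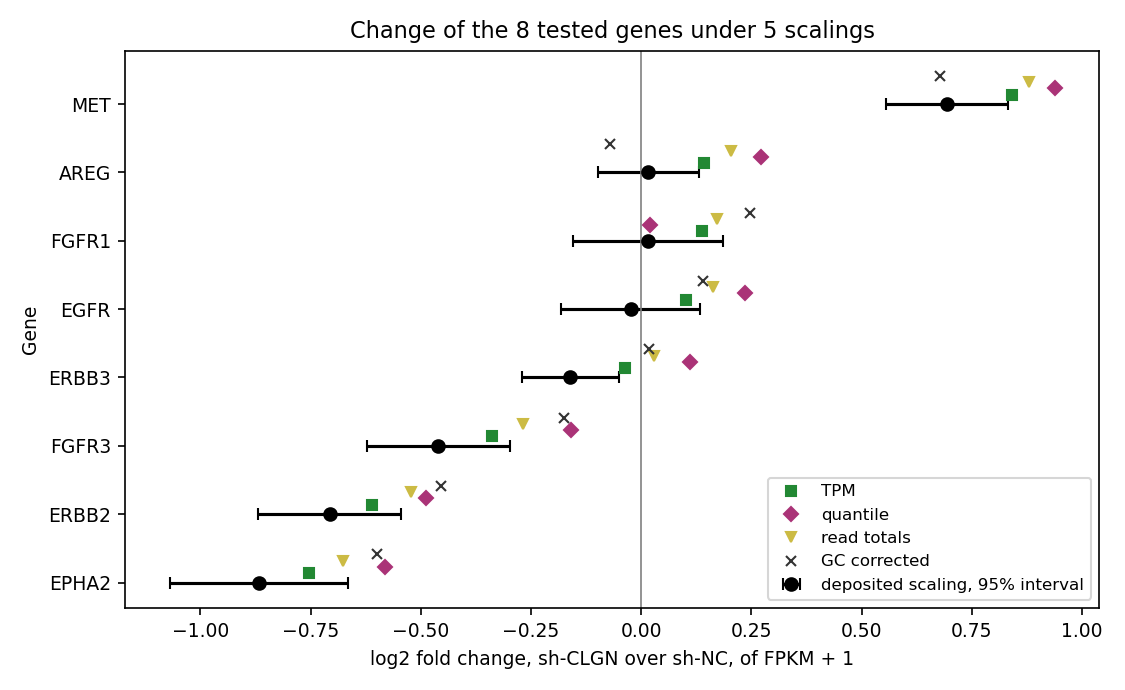
Log2 fold change of sh-CLGN over sh-NC on FPKM + 1 for the 8 tested genes, with black points and 95% intervals from limma on the deposited scale and coloured marks for 4 other scalings. MET stays between 0.68 and 0.94 and EPHA2 between -0.87 and -0.58 over these scalings, while ERBB3, EGFR and AREG fall on both sides of 0.

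In order of FPKM, FGFR3 led in both groups and the low end was held by FGFR2 and EREG. In sh-NC the order was FGFR3, EPHA2, ERBB3, EGFR, AREG, ERBB2, MET, FGFR1, FGFR2 and EREG, and the ranges of the neighbours EGFR and AREG, AREG and ERBB2, and FGFR2 and EREG overlapped. In sh-CLGN MET stood at rank 4, above EGFR, and ERBB2 at rank 7, below AREG. The neighbours ERBB3 and EPHA2, and EGFR and AREG, overlapped there.

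Across all tested genes the change was related to GC content, with a Spearman rho of -0.33 over 13068 genes that share the same 6 libraries. The median log2 fold change was 0.28 over the 1307 genes of lowest GC content and -0.29 over the 1306 of highest. EPHA2, FGFR3 and ERBB2 lie above 84.6% or more of tested genes in GC content, whereas MET lies above 29.8% of them. The part of GC content in the receptor values was not tested beyond the corrected values given above.

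Genes that work with these receptors were described from 6 lists written from general knowledge. The share of tested list members that passed in either direction was at most 78.6%, in the list of MET and FGFR partners, against 65.8% of all tested genes. That 78.6% includes HGFAC, which could be tested only because of its level in sh-CLGN, so it is not read as a result. Of 10 other ERBB ligands and ERBB4, 2 were tested, of which BTC entered only through sh-CLGN, as above. HBEGF, the other, was at 1.26 ± 0.099 FPKM in sh-NC and 1.23 ± 0.081 in sh-CLGN.

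The list of proteins that shed ERBB ligands or turn the receptors off or over had 14 of 14 genes tested, 2 higher and 8 lower, with a median log2 fold change of -0.26 against -0.08 for all genes. The split was 2 higher and 4 lower on TPM and 3 and 4 on read totals. ERRFI1, an inhibitor that binds the EGFR kinase, was at 170, 166 and 172 FPKM in sh-NC and at 47.8, 48.6 and 49.1 FPKM in sh-CLGN, a log2 fold change of -1.78 (adjusted p = 3.01e-07). PTPN1, a phosphatase acting on receptor kinases, fell by 0.63 (-0.38 with quantile normalization), and RNF41, a ubiquitin ligase for ERBB3, fell by 0.46 (-0.28 on read totals). PTPRJ, a receptor-type phosphatase, rose by 0.60. A fall of ERRFI1 thus accompanied EGFR levels that overlapped between the groups.

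Partners of MET and the FGF receptors had 14 of 27 genes tested, 3 higher and 8 lower, with a median of -0.43, which was -0.18 after GC correction. HGFAC, 1 of the 3 higher, passed the filter only through sh-CLGN, so the count of higher genes is not read as a result. FGF19, the hormone that signals through FGFR4, was at 36.7, 34.3 and 35.0 FPKM in sh-NC and at 6.55, 7.01 and 5.97 FPKM in sh-CLGN, a log2 fold change of -2.28 (adjusted p = 5.41e-07). FGFRL1, a receptor relative without a kinase domain, fell by 1.58, SDC4, a heparan sulphate proteoglycan that holds FGFs, by 1.31, and FGFR4 by 1.06. HGF, the ligand of MET, had at most 2 reads in any library, so the rise of MET was seen in cells with almost no transcript of its ligand.

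Among other Eph receptors and ephrins, 6 of 21 genes were tested, 1 higher and 3 lower, with a median of -0.36, which was -0.047 after GC correction. EFNA1, a ligand of EPHA2, was at 22.9, 25.7 and 24.9 FPKM in sh-NC and at 11.4, 11.2 and 11.2 FPKM in sh-CLGN, a log2 fold change of -1.05 (adjusted p = 4.74e-06). EPHA2 and this ligand were therefore both lower. EFNA4 and EPHB4 fell by 0.39 and 0.40. Their values after GC correction were -0.15 and -0.14, and EPHB4 did not pass with quantile normalization (-0.13). EPHA5 rose by 0.56 (0.85 on TPM).

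Of the adaptors and the RAS-ERK and PI3K chain, 23 of 24 genes were tested, 7 higher and 9 lower, with a median of -0.05. That split depended on scale, with 9 higher and 6 lower on TPM and 10 and 5 on read totals. FRS2, the docking protein of FGF receptors, rose by 1.05 on the log2 scale (adjusted p = 9.18e-06) and NRAS by 0.72. SHC1 and GRB2, adaptors that bind activated ERBB receptors and MET, fell by 0.99 and 0.60, GRB2 by 0.32 with quantile normalization. Adaptors thus moved in both directions.

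Other receptor tyrosine kinases had 8 of 33 genes tested, 2 higher and 4 lower, with a median of -0.22, which was 0.03 after GC correction. The split was 3 higher and 2 lower on TPM and 3 and 1 on read totals. LMTK2 fell by 1.32 and IGF1R, the receptor of insulin-like growth factor 1, by 0.30, the latter not passing on read totals (-0.13). MERTK, a receptor for GAS6, rose by 0.39. DDR1, a collagen receptor, was at -0.28 (adjusted p = 0.0237) and did not pass on TPM, on read totals, with GC correction, with no filter, with the replicate block, or without sh-NC replicate 2, sh-CLGN replicate 2 or sh-CLGN replicate 3, with values between -0.45 and -0.01 over all settings other than leaving out a library.

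**Figure D4:**
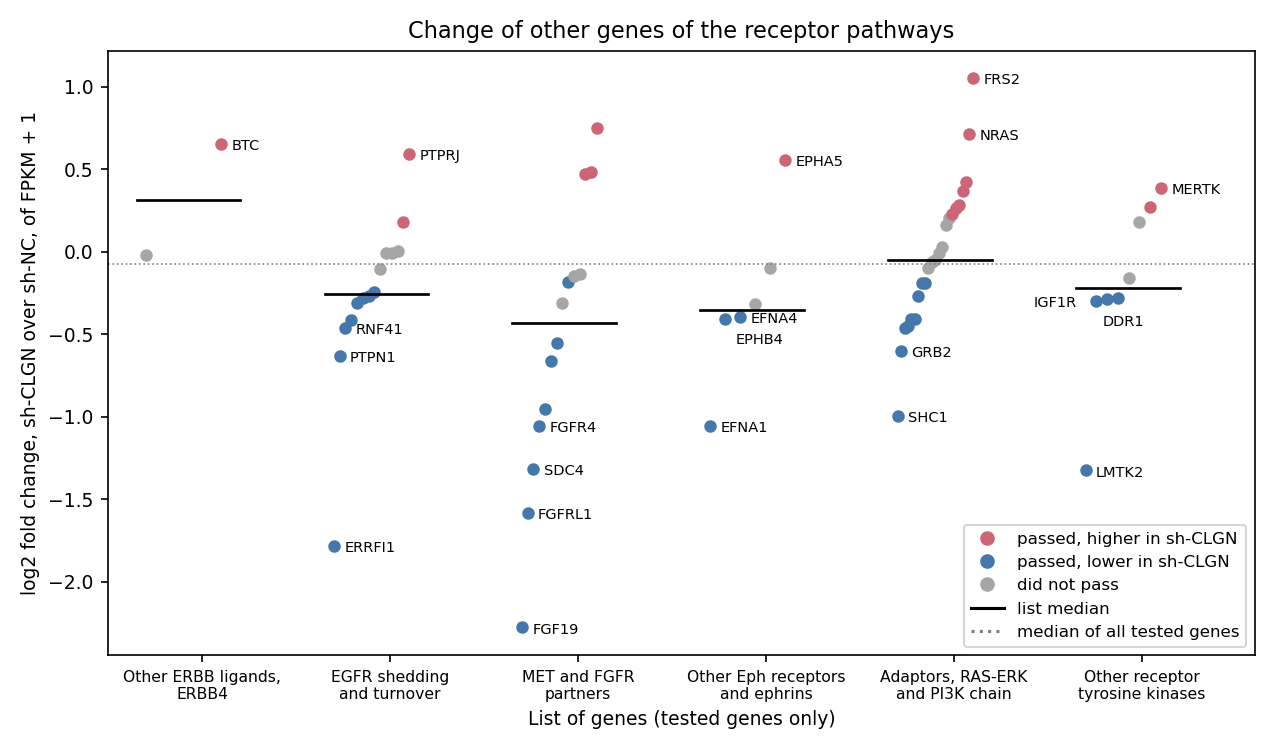
Log2 fold change of sh-CLGN over sh-NC on FPKM + 1 for each tested gene of 6 lists, coloured by the limma test at an adjusted p of 0.05, with bars at list medians and a dotted line at the median of all tested genes (-0.08). Points lie on both sides of the line in each list except that of other ERBB ligands and ERBB4, where both lie above it and BTC was tested only because of its level in sh-CLGN, and the lowest are FGF19 (-2.28), ERRFI1 (-1.78) and FGFRL1 (-1.58).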

How the data were processed

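Total RNA of Hep-G2 cells was made into 3 sh-NC and 3 sh-CLGN libraries with a NEBNext Ultra kit, per the labels. The deposited values are FPKM, which the authors gave for each gene in a single table. The submitters' processing notes name HISAT2 2.0.5, featureCounts and GRCh38. The strandedness of counting is not given in the sources used here, so overlapping and antisense genes are uncertain. The positions of all 58735 genes matched GENCODE 29 exactly. FPKM times gene length fell on whole reads for 100% of values within 0.01 of a read. A single read on 1 kb was worth 0.0589 to 0.0717 FPKM, which is the step of the values and not a measure of their error. Reads carried no molecular identifiers.

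Groups were taken from the labels. limma 3.58.1 in R 4.3.3 with an intensity trend was run on log2(FPKM + 1) of all 6 libraries, without covariates, for genes that reached 1 FPKM in 3 or more libraries, with two-sided Benjamini-Hochberg adjustment over 13074 genes. Fold changes on this scale understate those of low genes. The 10 genes and the lists were chosen with earlier results of these data known. Named genes are the 10, CLGN and up to 4 genes per list with the largest absolute log2 fold change among those that passed. MIEN1, PGAP3, EGFR-AS1, AL451042.2, EPGN, HBEGF, HGF, HGFAC and the markers were named outside that rule for their place or role, and the motifs and the promoters shown were chosen after the values were seen.

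The alternatives were a pseudocount of 0.1, no filter, TPM, quantile and read total scaling, no trend, voom on recovered reads, GC correction per library (lowess span 0.3), a block on the replicate number, and removal of 1 library at a time. The fit was tested on simulated data with known changes, where a GC tilt added to the simulation produced mostly false calls without GC correction. Promoter windows came from RefSeq. Tables and figures were made in Python 3.11.15 with pandas 2.3.3 and matplotlib 3.10.9.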

Additional observations from a re-analysis of the deposited data

How the results depend on the processing

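MET, EPHA2, ERBB2, FGFR3 and CLGN kept their direction and passed the test under all 11 other settings, 2 of which (voom with a minimum of 10 reads, and a pseudocount of 0.1 with no filter) were chosen after seeing the data, and with each library left out. Between 4 and 6 of the 10 genes passed. EREG passed both thresholds in the 2 settings added, a count of 1 in each against 0. EGFR turned to 0.10 on TPM, 0.24 with quantile normalization, 0.16 on read totals and 0.14 with GC correction, and lay between -0.080 and 0.021 with 1 library left out. ERBB3 turned to 0.11, 0.029 and 0.017 with quantile normalization, read totals and GC correction. AREG turned to -0.070 with GC correction and lay between -0.014 and 0.048 with 1 library left out, and FGFR1 between -0.047 and 0.069. The causes were not tested.

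With the replicate block 8038 genes passed against 8598. The numbers do not pair the libraries (correlations of deviations from group means of -0.018, -0.046 and -0.15), and ERBB3 was the one of the 10 genes whose call was lost with the block (adjusted p = 0.0534). Genes past both thresholds numbered 821 in the comparison reported, 1606 with a pseudocount of 0.1, 1426 on TPM, 1722 with voom, 2852 with voom at a minimum of 10 reads and 2914 with a pseudocount of 0.1 and no filter. More genes were tested in the last 2. Other ERBB ligands and ERBB4 had 3 genes passing with voom at a minimum of 10 reads and 2 with a pseudocount of 0.1 and no filter. EGFR shedding and turnover had 6 on TPM. Other Eph receptors and ephrins had 7 with no filter and 9 with voom at that minimum. Other receptor tyrosine kinases had 13 with voom at that minimum, among them AXL, which entered only through the knockdown libraries. Over all genes, 10565 of 16164 passed with voom at that minimum and 8208 of 13074 on TPM. With no filter 9246 of 33474 passed, and 9291 with the pseudocount of 0.1 as well. As more genes were tested without the main filter, a higher list count is not read as a result. Depth limits EREG, FGFR2 and EPGN, at no more than 104 reads in a library.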

Other observations

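Several receptors and ligands of the same lists lay below the expression filter and still separated the groups in reads. These were picked after their values were seen, and the share of all genes below the filter that separated the groups was not counted. Over all genes, at least 1 read fell on 23578 to 23793 in sh-NC against 26814 to 27006 in sh-CLGN. Being read only after knockdown therefore does not set a gene of these lists apart. AXL, a receptor kinase for GAS6, had 0 reads in all 3 sh-NC libraries and 60, 50 and 35 reads in sh-CLGN (0.566 ± 0.135 FPKM, SD, n = 3), at least 14.2-fold higher against a floor of 3 reads per library. FGF1, a ligand of all FGF receptors, had 0, 2 and 1 reads in the controls against 44, 47 and 48 after knockdown. PDGFRA, a platelet-derived growth factor receptor and also 1 of the fibroblast markers, went from 0.420 ± 0.083 to 0.951 ± 0.120 FPKM. In the opposite direction, EFNB2, an ephrin ligand, had 39, 33 and 31 reads in the controls against 14, 16 and 10 after knockdown. In the voom setting with a minimum of 10 reads, AXL and FGF1 entered only through the knockdown libraries, so no test is given for them, and FGF21 (9, 16 and 7 reads against 6, 3 and 2) did not enter.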
